A study of Homo sapiens with 6 samples.

Results

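Azurophil granules are the first granules that a neutrophil precursor makes, at the promyelocyte stage, and they store the proteins that digest and kill engulfed microbes. Myeloperoxidase uses hydrogen peroxide to make hypochlorous acid, the granule serine proteases cut microbial and matrix proteins, and defensins, bactericidal/permeability-increasing protein and lysozyme attack microbial envelopes. Transcription of the myeloperoxidase and serine protease genes is known to be high in promyelocytes and to be shut off as the cells mature, while the proteins persist in the granules. The genes followed here were MPO, ELANE, PRTN3, CTSG, AZU1, DEFA4, BPI, LYZ, SRGN, which encodes the proteoglycan serglycin that packs granule proteins, and SERPINB1, a cytosolic inhibitor of the serine proteases. Members were the HG-U133A probe sets annotated to 1 of these genes and to no other. This gave 12 probe sets for 9 of the 10 genes, of 22283 on the array. The probe set for BPI was also annotated to a second gene and was not used.

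The arrays measured total RNA of HL60, an established human promyelocytic leukemia cell line, in 2 groups of 3 arrays. The DMSO group received the vehicle, dimethyl sulfoxide, at a final concentration of 0.1%, and the tretinoin group received tretinoin, the all-trans form of retinoic acid, at 1 μmol/l in the same concentration of DMSO, each for 5 days. Both groups carried the vehicle, so these arrays do not show an effect of DMSO itself. The 3 arrays of a group were parallel hybridizations of pooled labeled product, so the p-values below measure the spread between hybridizations and not between cultures. In bulk RNA of this kind, fewer cells expressing a gene and less of its RNA per cell cannot be told apart.

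Each value below is a MAS5 signal, the summary intensity of a probe set in arbitrary units, after every array was scaled to the mean of DMSO replicate 1. Scale factors ran from 0.820 to 1.36, the highest for tretinoin replicate 2, and between 12239 and 13397 probe sets exceeded 20 on an array. Signals below 20 were set to 20, the baseline used in the study. A fold is the larger group mean over the smaller, and it is a lower bound where arrays of the lower group lay below 20. Calls of higher or lower needed an adjusted p under 0.05 from limma together with a fitted difference of 1.5-fold or more. For ACTB, the ratio of 3' to 5' probe set signals, which reflects RNA integrity and labeling, ran from 1.38 to 1.42 on DMSO arrays and from 1.14 to 1.17 on tretinoin arrays. For GAPDH it ran from 1.06 to 1.17 and from 1.15 to 1.19. The part of RNA quality in the results was not tested.

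MPO, CSF3R, which encodes the receptor for granulocyte colony-stimulating factor, SPI1 and FUT4 were above 20 on every array, and 2 of these myeloid markers were lower (MPO and FUT4) and 2 higher (SPI1 and CSF3R) after tretinoin. FUT4 was called on 1 of its 2 probe sets. Markers of other lineages were weak. None of the 3 tested T cell markers, 2 B cell markers, 2 erythroid markers and 1 epithelial marker was called, and EPCAM, KRT19, CDH1 and ALAS2 were below 20 on all 6 arrays. HBB (50.4 to 79.2), KRT18 (33.3 to 56.2) and CD3E (29.3 to 51.8) exceeded 20 on all 6. Of the eosinophil markers, PRG2, the eosinophil major basic protein, was lower (at least 2.85-fold, adjusted p = 0.00799 by limma, but 0.0602 with no filter on signal), CLC, the Charcot-Leyden crystal protein, was higher (at least 3.17-fold, adjusted p = 0.000215), and EPX was not called. The summed signal of the eosinophil list ran from 80.2 to 150.04 on DMSO arrays and from 105 to 115 on tretinoin arrays, and its part in the results was not tested. RNASE2, described below with the azurophil constituents, was not in that list.

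After 5 days of tretinoin, 6 of the 9 measured genes were lower and 1 was higher. MPO, ELANE, PRTN3, CTSG, AZU1 and LYZ fell, SERPINB1 rose, and SRGN and DEFA4 were not called. By probe set, 7 of 12 were called lower, against 13.8% of the 13374 tested across the array, and 2 were called higher, against 13.6%. Across the array these calls numbered 1850 lower and 1824 higher, and 2312 and 1142 without scaling between arrays, which left the calls of the 12 probe sets as they were. All 12 passed the minimum of 20 on at least 3 arrays. The arrays of the 2 groups did not overlap for 10 of the 12, against 46.0% of all tested probe sets. The median log2 change was -1.39 over the 12 probe sets and -0.03 over all tested.

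**Figure D1:**
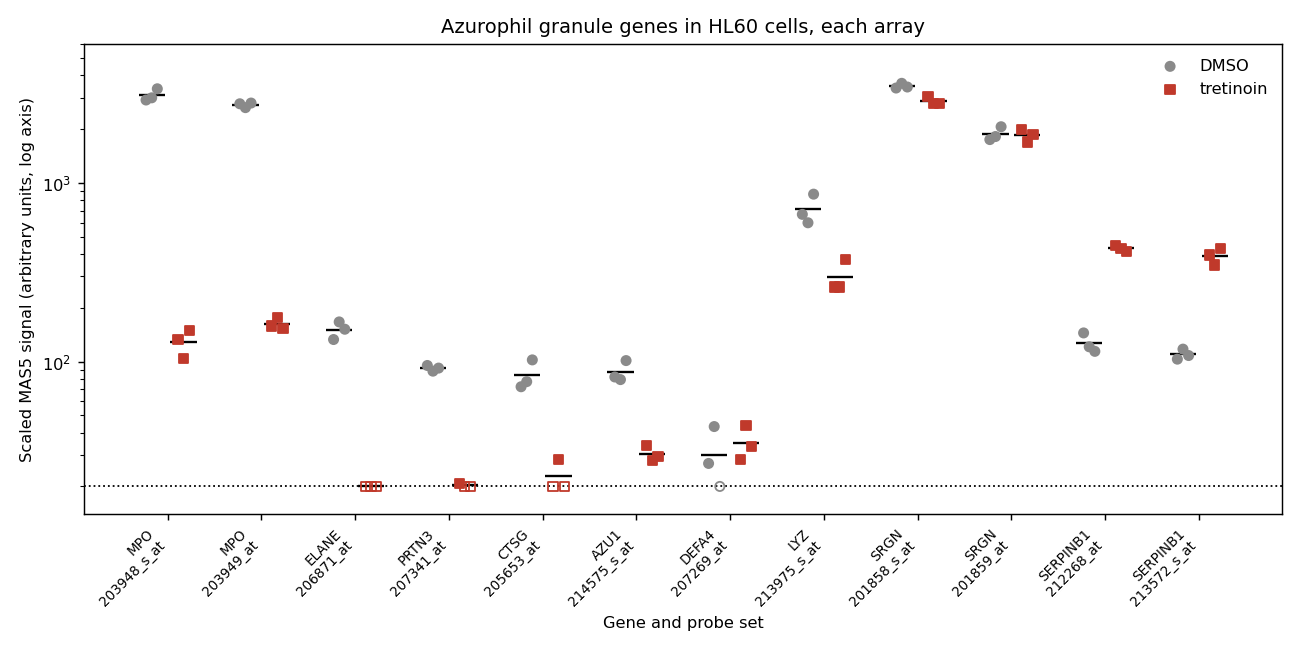
Scaled MAS5 signal (log axis) of each of the 12 azurophil granule probe sets on the 3 DMSO arrays (gray circles) and the 3 tretinoin arrays (red squares), with black bars at the group means. Open symbols lie below 20 and are drawn at the dotted line at 20, and they include all 3 tretinoin arrays of ELANE. The groups stand clear of each other for MPO, ELANE, PRTN3, CTSG, AZU1, LYZ and SERPINB1, and mix for DEFA4 and for the second SRGN probe set.

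MPO, which encodes the peroxidase itself, carried the largest change of the set. Its probe set 203948_s_at gave signals of 2914, 2997 and 3367 in DMSO and of 134, 104 and 149 in tretinoin, in replicate order here and below. Probe set 203949_at read 2776, 2641 and 2802 in DMSO and 158, 176 and 153 in tretinoin. Every DMSO array was thus far above every tretinoin array on both. The group means fell 24.02-fold on the first (3093 ± 241 to 129 ± 22.8; SD, n = 3 arrays) and 16.9-fold on the second (2739 ± 86.2 to 162 ± 12.4). The log2 changes were -4.60 (SE 0.17, adjusted p = 9.98e-06 by limma) and -4.08 (SE 0.12, adjusted p = 4.94e-06). Among the 9377 tested probe sets with no array below 20, these ranked 1 and 4 by size of fall. The study had chosen 203949_at among its set of transcripts from these same arrays, so its fall is not independent evidence.

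The 2 MPO probe sets differed in the size of the fall, though not past a threshold of 0.05. The log2 signal of the first minus that of the second was 0.07, 0.18 and 0.27 on the DMSO arrays and -0.24, -0.76 and -0.04 on the tretinoin arrays. These do not overlap, and their means differ by 0.52 on the log2 scale (exact two-sided permutation test, p = 0.1, the smallest that 3 arrays against 3 allow). Tretinoin replicate 2, the array with the largest scale factor, gave the lowest value.

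The genes whose profiles over the 6 arrays lay nearest to that of MPO were ASNS, which makes asparagine, S100P, ASS1, an enzyme of arginine synthesis, MYC and PHGDH, the entry enzyme of serine synthesis. The measure was the root mean square distance from 203948_s_at between log2 profiles centred on their own means, and for these 5 it ran from 0.142 for ASNS to 0.448 for PHGDH. The other MPO probe set stood at 0.342. By size of fall over all tested probe sets, the 5 genes ranked 1, 4, 3, 6 and 8, so the distance largely follows the size of the fall. Of the remaining members ELANE came nearest, at 0.866, followed by PRTN3 at 1.22 and CTSG at 1.40, and the floor of 20 limits how far those 3 could fall. It also sets the distance of ASNS in part, since 2 of its tretinoin arrays lay below 20.

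ELANE, PRTN3, CTSG and AZU1 encode neutrophil elastase, proteinase 3, cathepsin G and azurocidin, which belong to a single family of granule serine proteases. Azurocidin has lost the protease activity and acts as an antimicrobial and chemoattractant protein. AZU1, PRTN3 and ELANE follow each other with no protein-coding gene between them on chromosome 19, and CTSG lies on chromosome 14. Promoter sequence was at hand for AZU1, PRTN3, CTSG and SERPINB1, and was not used here for the other members. The 250 bases before the start of each (RefSeq, GRCh38.p14) are printed for these, because 3 of the genes fell and SERPINB1 rose. Capitals mark matches on either strand. The motif of the C/EBP factors, which include the product of CEBPA, was searched as TTNNGNAA. The motif searched for MYB, a factor of immature blood cells, was CAACNG. For the factor PU.1, the product of SPI1, the letters searched were GAGGAA. The last motif, like a TATA box, was searched as TATAAG and was chosen after the sequences were seen.
AZU1, chr19:827587-827836, plus strand: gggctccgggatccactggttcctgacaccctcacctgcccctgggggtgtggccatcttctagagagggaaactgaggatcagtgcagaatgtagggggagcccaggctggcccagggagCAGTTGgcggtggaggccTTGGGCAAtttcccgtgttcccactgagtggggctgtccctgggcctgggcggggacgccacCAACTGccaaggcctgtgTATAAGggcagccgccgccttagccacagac
PRTN3, chr19:840749-840998, plus strand: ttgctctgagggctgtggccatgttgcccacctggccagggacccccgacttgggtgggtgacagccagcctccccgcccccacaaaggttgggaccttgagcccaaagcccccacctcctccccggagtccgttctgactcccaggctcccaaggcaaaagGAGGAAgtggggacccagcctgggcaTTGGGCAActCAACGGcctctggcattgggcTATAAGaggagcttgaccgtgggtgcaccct
CTSG, chr14:24576251-24576500, minus strand: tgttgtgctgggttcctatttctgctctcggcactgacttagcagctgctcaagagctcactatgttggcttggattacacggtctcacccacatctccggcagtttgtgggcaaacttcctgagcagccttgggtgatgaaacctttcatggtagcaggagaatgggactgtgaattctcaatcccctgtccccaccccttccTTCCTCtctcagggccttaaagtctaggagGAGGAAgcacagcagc
SERPINB1, chr6:2841864-2842113, minus strand: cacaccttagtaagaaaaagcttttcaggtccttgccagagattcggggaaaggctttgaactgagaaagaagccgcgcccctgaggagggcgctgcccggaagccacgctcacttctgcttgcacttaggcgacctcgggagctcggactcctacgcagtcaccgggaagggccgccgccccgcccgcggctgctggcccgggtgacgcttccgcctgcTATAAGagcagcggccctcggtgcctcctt

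In AZU1 and PRTN3 the same 8 letters, TTGGGCAA, matched the C/EBP motif, from 111 to 104 bases before the start in AZU1 and from 62 to 55 in PRTN3. PRTN3 held 1 MYB match and AZU1 held 2. PU.1 matches numbered 1 in PRTN3 and 2 in CTSG. SERPINB1 held none of these 3 motifs, and TATAAA was found in none of the 4 promoters. TATAAG lay from 31 to 26 bases before the start in both AZU1 and PRTN3 and from 30 to 25 in SERPINB1. No match overlapped another. Of 35116 promoters of the same length, 33.2% held the C/EBP motif, 27.0% the MYB motif, 23.6% the PU.1 motif, 10.7% the TATAAA box and 5.03% the TATAAG motif, so the first 3 motifs are common. A match is a description of the sequence and does not show binding.

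ELANE was measured in DMSO alone. It read 132.9, 167 and 151.8 on the DMSO arrays, and all 3 tretinoin arrays were below 20. The fall was at least 7.52-fold from 150.5 ± 16.96 (log2 change -2.91, SE 0.13, adjusted p = 2.15e-05 by limma). With a floor of 10, which only 1 tretinoin array exceeded, it was at least 13.2-fold (adjusted p = 0.000181). Since all 3 tretinoin arrays were set to the floor, the fit holds no spread of theirs, and the standard error does not cover it. ELANE entered the test through its 3 DMSO arrays alone, and with no filter on signal the adjusted p was 0.000365.

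PRTN3 gave 95.1, 88.4 and 92.0 in DMSO, and exceeded 20 on 1 tretinoin array, at 20.9. The fall was at least 4.53-fold (log2 change -2.18, SE 0.11, adjusted p = 3.68e-05 by limma). CTSG gave 72.3, 77.2 and 102 in DMSO, and exceeded 20 only on tretinoin replicate 2, at 28.4. It was at least 3.68-fold lower (log2 change -1.88, SE 0.20, adjusted p = 0.000592). For both genes the lowest DMSO array stood well above the highest tretinoin array. Their other tretinoin arrays were set to the floor, so the standard errors do not cover the spread of those arrays. With a floor of 10 the bounds became 6.74-fold for PRTN3 and 5.20-fold for CTSG. The SEs were then 0.31 and 0.44, and the adjusted p by limma 0.0017 and 0.0088. Both also entered the test through their DMSO arrays, and with no filter their adjusted p was 8.5e-05 and 0.00879.

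AZU1 stayed measurable in both groups. It read 82.0, 79.3 and 101 in DMSO and 34.0, 27.8 and 29.4 in tretinoin, with no overlap. The fall was 2.88-fold, from 87.5 ± 12.0 to 30.4 ± 3.20 (log2 change -1.52, SE 0.15, adjusted p = 0.000441 by limma). Of the 3 genes in a row on chromosome 19, AZU1 had the only fall that is not a bound, and those of PRTN3 and ELANE were larger even as bounds. The 95% interval of AZU1 (-1.89 to -1.16) does not reach those of ELANE (-3.22 to -2.59) or PRTN3 (-2.45 to -1.91), while CTSG (-2.37 to -1.40) overlaps both AZU1 and PRTN3. Tretinoin arrays of ELANE, PRTN3 and CTSG were set to the floor, so their intervals do not cover the spread of those arrays. The differences between genes were not tested.

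**Figure D2:**
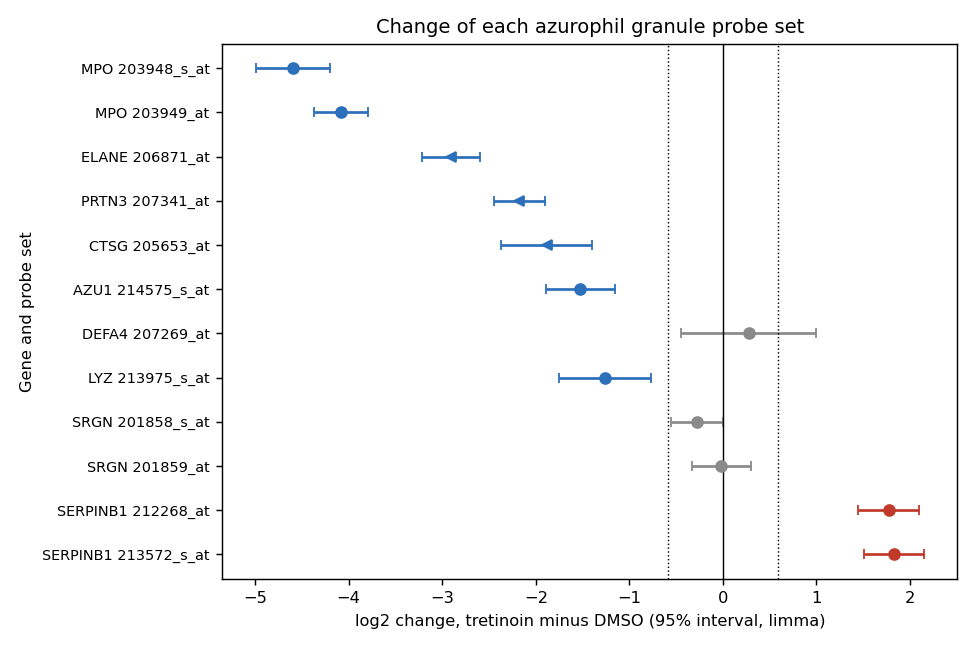
Log2 change (tretinoin minus DMSO) of each azurophil granule probe set with its 95% interval from limma, blue where called lower, red where called higher and gray where not called. Arrowheads mark probe sets with tretinoin arrays below 20, whose fitted change and interval depend on the floor, and dotted lines mark a change of 1.5-fold. The MPO probe sets lie at -4.60 and -4.08, and both SERPINB1 probe sets lie near 1.8.

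LYZ encodes lysozyme, which cuts bacterial cell walls and is stored in several kinds of neutrophil granule and made by macrophages. It read 667, 599 and 866 in DMSO and 261, 261 and 372 in tretinoin. All DMSO arrays were above all tretinoin arrays, and replicate 3 was the highest of its group in both. The fall was 2.38-fold, from 711 ± 139 to 298 ± 63.9 (log2 change -1.26, SE 0.21, adjusted p = 0.00377 by limma). LYZ and AZU1 had overlapping intervals, at -1.75 to -0.76 for LYZ and -1.89 to -1.16 for AZU1.

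DEFA4, a defensin, was weakly measured. It read 26.9 and 43.3 on DMSO replicates 1 and 2 and below 20 on replicate 3, against 28.2, 44.1 and 33.4 in tretinoin. The groups overlapped and the probe set was not called (log2 change 0.28, 95% interval -0.44 to 1.00, adjusted p = 0.552 by limma). No change was detectable at signals this near the floor, and the interval holds changes past 1.5-fold upward.

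SRGN encodes serglycin, the proteoglycan core that binds proteases and other basic proteins inside granules of many blood cells. Probe set 201858_s_at read 3401, 3613 and 3445 in DMSO and 3039, 2793 and 2789 in tretinoin. These did not overlap, but the difference was 1.21-fold and was not called (log2 change -0.28, 95% interval -0.56 to -0.00, adjusted p = 0.118 by limma). Under some alternatives the adjusted p of 201858_s_at passed the threshold, and only the minimum fold kept it uncalled. Probe set 201859_at read 1749.7, 1819.5 and 2065 in DMSO and 2000.2, 1698 and 1872 in tretinoin, which overlap (log2 change -0.02, 95% interval -0.33 to 0.30, adjusted p = 0.947). On neither probe set did the interval reach a 1.5-fold change. The difference between the 2 probe sets shifted by 0.26 on the log2 scale between groups, with no overlap (exact two-sided permutation test, p = 0.1, the smallest possible). Both probe sets of SRGN thus stayed far from the change of MPO, whose interval began at -4.20 and -3.79.

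SERPINB1 encodes the leukocyte elastase inhibitor, a serpin of the cytosol that blocks elastase, proteinase 3 and cathepsin G. Probe set 212268_at read 145, 121 and 114 in DMSO and 448, 431 and 414 in tretinoin. Probe set 213572_s_at read 103, 117 and 108 in DMSO and 395, 348 and 428 in tretinoin. The lowest tretinoin array stood far above the highest DMSO array on each. The rises were 3.40-fold, from 127 ± 16.05 to 431 ± 17.3, and 3.56-fold, from 110 ± 7.22 to 390.3 ± 40.4. Their log2 changes were 1.77 (SE 0.14, adjusted p = 0.000159 by limma) and 1.83 (SE 0.14, adjusted p = 0.000138). The log2 changes of the pair differed by 0.06 (exact two-sided permutation test, p = 0.8, where 3 arrays against 3 cannot go below 0.1). It was the only one of the 9 measured genes called higher.

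Most other measured constituents of the azurophil granule were higher. Of 13 further genes listed, 6 had a probe set of their own in the annotation used. Of these 5 were higher and 1 was lower, against 13.6% and 13.8% of all tested probe sets. CTSC, which encodes the protease that activates elastase, proteinase 3 and cathepsin G by removing a dipeptide, rose 2.13-fold, from 287 ± 18.8 to 610.2 ± 75.6 (adjusted p = 0.00142 by limma). The sialidase NEU1 rose 4.06-fold and the granule membrane protein CD63 rose 3.44-fold (431 ± 14.9 to 1486 ± 95.9). GUSB, beta-glucuronidase, rose 1.82-fold and MAN2B1, lysosomal alpha-mannosidase, rose 1.76-fold, and both calls were lost without scaling between arrays (adjusted p = 0.0677 and 0.109). RNASE2, a cationic ribonuclease also named eosinophil-derived neurotoxin, fell at least 10.1-fold from 360.5 ± 27.8, with tretinoin replicate 1 below 20. The median log2 change of the 6 was 0.97, against -0.03 over all tested probe sets. These are lysosomal enzymes and membrane proteins that many cell types make, apart from RNASE2.

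Signals for proteins of the later specific and gelatinase granules ranged widely. Of 16 listed, 8 did not exceed 20 on 3 arrays, among them LTF, lactoferrin, and CAMP, the cathelicidin precursor, which were below 20 on all 6. Of the 8 tested, 1 was higher and 1 was lower, near the 13.6% and 13.8% of all tested probe sets. HP, haptoglobin, rose 4.02-fold (66.2 ± 10.3 to 266 ± 23.0, adjusted p = 0.000161 by limma). ORM1, orosomucoid, fell 2.62-fold, from 623 ± 107 to 238 ± 28.1 (adjusted p = 0.0012). The other 6 were not called, among them CHI3L1, a chitinase-like glycoprotein, at 455 ± 8.78 and 628 ± 41.5, and the list median was 0.22. Of the 3 CHI3L1 probe sets, 1 other than this was called higher. MMP9, the gelatinase B gene, stood at 66.4 ± 9.10 and 43.5 ± 12.3 (adjusted p = 0.0658) and was called lower without scaling, with quantile normalization and without tretinoin replicate 2.

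Among transcription factors known to act on primary granule genes, 2 of 6 tested were lower and 1 was higher, against 13.8% and 13.6% of all tested probe sets. MYB, which is active in immature blood cells, read 859, 898 and 883 in DMSO and 141, 111 and 127 in tretinoin (6.97-fold lower, adjusted p = 2.69e-05 by limma). Only this 1 of the 2 MYB probe sets was called. CEBPA, which starts the granulocyte program, read 602, 564 and 645 in DMSO and 241, 251 and 193 in tretinoin (2.64-fold lower, adjusted p = 0.000525). SPI1, the gene of PU.1, rose 1.88-fold (119 ± 16.97 to 224 ± 33.9, adjusted p = 0.00627), a call lost without scaling (adjusted p = 0.0517). CEBPE, which drives the later granules, had an adjusted p of 0.0191 but a difference of 1.39-fold, under the minimum of 1.5-fold. CBFB and GFI1 were not called. The median of the 6 was -0.10.

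Of 10 tested genes that serve the making of myeloperoxidase, 1 was higher and 1 was lower, against 13.6% and 13.8% of all tested probe sets. Myeloperoxidase carries heme and folds in the endoplasmic reticulum with calreticulin, calnexin and the disulfide isomerase PDIA3. Of 7 tested heme synthesis enzymes, ALAS1, the first and rate-limiting enzyme, rose 1.70-fold (208 ± 14.4 to 354 ± 3.06, adjusted p = 0.00288 by limma), a call lost without scaling (adjusted p = 0.122). The other 6 were not called and the list median was -0.01. Of the 2 probe sets of FECH, among these 6, the dimmer was called higher. Of the 3 chaperones, CANX, calnexin, fell 1.52-fold (1875 ± 20.8 to 1233 ± 92.6, adjusted p = 0.00837), just past the minimum, and was not called without tretinoin replicate 3. Of the 3 CANX probe sets, 2 were called lower, this probe set included. CALR and PDIA3 were not called, and the median of the 3 chaperones was -0.22.

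Beyond SERPINB1, 5 listed protease inhibitors were tested, and none was called higher and 2 were lower. The shares over all tested probe sets were 13.6% and 13.8%. SERPINB8 fell 2.21-fold (89.3 ± 8.43 to 40.4 ± 6.54, adjusted p = 0.00182 by limma) and SERPINA1, alpha-1 antitrypsin, fell 2.15-fold (112 ± 12.8 to 52.4 ± 14.1, adjusted p = 0.00602). Only this 1 of the 3 SERPINA1 probe sets was called. SERPINA3, alpha-1 antichymotrypsin, an inhibitor of cathepsin G, was below 20 on all 3 DMSO arrays and read 27.2, 39.7 and 24.4 in tretinoin. It was not called (adjusted p = 0.0642) but was called higher with median scaling, with a floor of 10 and when 16 was added to each signal instead of flooring. Over the alternatives with no array left out, its adjusted p by limma ran from 0.00358 to 0.186. SERPINA3 entered the test through its tretinoin arrays alone, and its DMSO arrays were set to the floor. SLPI and PI3 were not called, and the list median was 0.07.

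**Figure D3:**
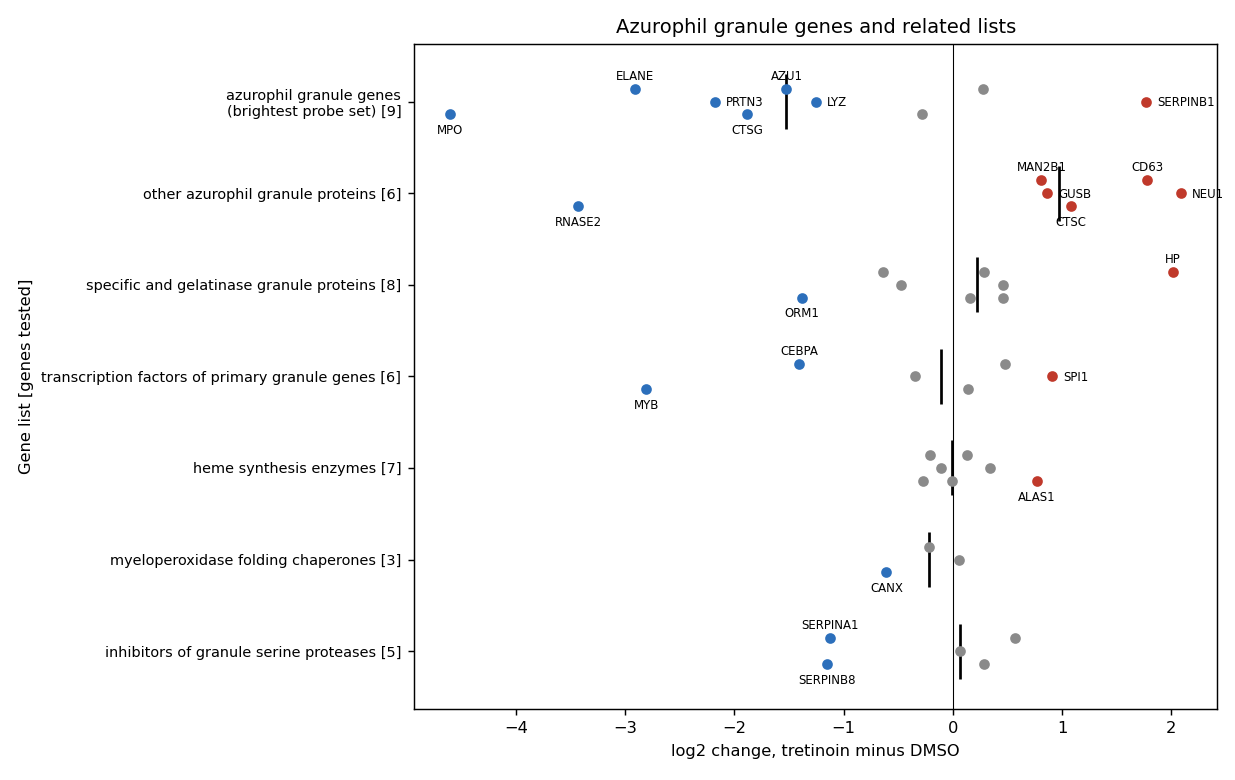
Log2 change (tretinoin minus DMSO) of each tested gene in the azurophil granule set and in 6 related lists, by the brightest probe set of each gene, with the number tested in brackets. Points are blue where called lower, red where called higher and gray where not called, and black bars mark list medians. The azurophil granule set lies mostly to the left of 0, with SERPINB1 (called) and DEFA4 (not called) on the right, and 5 of the 6 other azurophil constituents lie to the right.

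The genes flanking the members were read in the same way, a step chosen after the member values were seen. The 3 nearest protein-coding genes were taken on each side of the AZU1, PRTN3 and ELANE row, of CTSG, of MPO and of SERPINB1. Of these 24 genes, 12 were tested, of which 2 were lower, 2 were higher and 8 were not called, shares near the 13.8% and 13.6% of all tested probe sets. The 2 lower ones, PTBP1, a splicing regulator (1.92-fold, adjusted p = 0.00333 by limma), and PLPPR3 (2.27-fold, adjusted p = 0.00364, a call lost with a floor of 40), lie next to AZU1 on the same side. On the other side of the row, CFD, which encodes complement factor D, a related serine protease of myeloid cells, was not called (149.8 ± 30.2 to 181 ± 5.90, log2 change 0.30, 95% interval -0.12 to 0.71, adjusted p = 0.251). MED16 and R3HDM4 beyond it were not called either. Next to CTSG, the protease genes CMA1, GZMH and GZMB did not exceed 20 on 3 arrays. Beside MPO, the peroxidase gene LPO was not tested and EPX was not called, while SUPT4H1 was 1.51-fold higher (adjusted p = 0.0109). Near SERPINB1, SERPINB9 was too weak to test and NQO2 was 1.67-fold higher (adjusted p = 0.0248), and the calls of SUPT4H1 and NQO2 were lost under several alternatives.

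**Figure D4:**
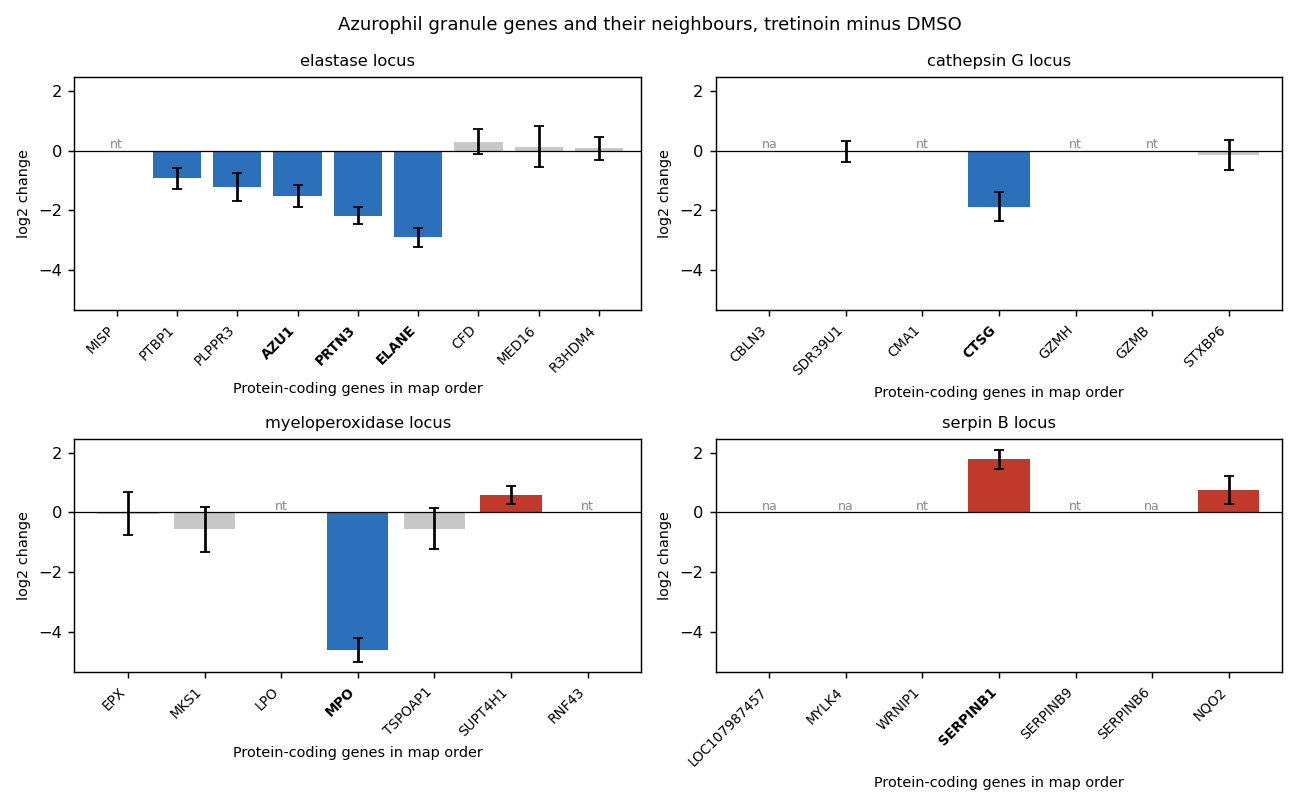
Log2 change (tretinoin minus DMSO) with 95% intervals from limma for azurophil granule genes (bold) and the 3 protein-coding genes on each side, in map order. Bars are blue where called lower, red where called higher and gray where not called, nt marks genes that did not exceed 20 on 3 arrays and na those without a probe set of their own in the annotation used. PTBP1 and PLPPR3 are lower beside AZU1, and CFD on the far side of ELANE is not.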

How the data were processed

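Each group was measured on 3 Affymetrix HG-U133A arrays, with labeled cRNA that the authors made from total RNA by linear amplification (an Eberwine-type protocol). The deposited values are MAS5 signal intensities on a linear scale (version not given in the sources used here), which the authors had not yet scaled between arrays. Their stated scaling and baseline were applied here: signals were brought to the mean of the first DMSO array, raised to 20 where lower, and taken to log2. The 13374 probe sets that exceeded 20 on 3 or more arrays entered the limma test (version 3.58.1, in R 4.3.3), with Benjamini-Hochberg adjustment over all of them. Such processing compresses changes near the floor, and the number of arrays limits the precision. No dates or batches were given in the labels.

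Of 22283 probe sets, 19071 had 1 gene in the annotation used, 1043 had several and 2169 had none. Related genes are shown by their brightest probe set with 1 gene, and a gene without one may still be on the array. Named were all members, the 2 largest called rises and falls of each list, every gene of a count of 5 or fewer, and the 5 profiles nearest to MPO. MMP9, LTF, CAMP, FECH and the flanking genes were named after their values were seen. Members and lists were chosen with earlier results of these data known. Promoters came from RefSeq (4 of the 10 genes). Alternatives were other scalings, floors, filters and variance models, a replicate block, no minimum fold, other probe sets, and each array left out. Python 3.11.15, numpy 2.4.6, pandas 2.3.3 and matplotlib 3.10.9 were used.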

Additional observations from a re-analysis of the deposited data

How the results depend on the processing

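The 7 falls and 2 rises among azurophil granule probe sets were called under all 11 alternatives that kept 6 arrays. With each array left out, 6 to 7 falls and 2 rises were called, the 6 arising where a DMSO array was left out and ELANE then exceeded 20 on only 2 arrays and was not tested. DEFA4 was not tested with a floor of 40. Of 200 alternative values for the 12 probe sets, 196 kept direction and call. The other 4 were signs of 201859_at of SRGN, whose log2 change became 0.00118 with median scaling, 0.10 with quantile normalization and ran from -0.0715 to 0.0541 with each array left out. No scaling moved the median log2 change of all tested probe sets by -0.18, gave 1142 calls higher and 2312 lower against 1824 and 1850, and left 3 other azurophil proteins, 0 transcription factors and 0 heme enzymes higher and 2 specific or gelatinase granule genes lower. Genes of that last list called lower numbered 2 also with quantile normalization (MMP9) and a floor of 10 (PTX3), and 1 to 2 with each array left out. Those called higher numbered 2 with no minimum fold and with the probe set of largest change per gene, under which 2 heme enzymes were higher. With no minimum fold 2 transcription factors were higher. SERPINA3 made 1 inhibitor higher with median scaling, a floor of 10 and an offset of 16. Chaperones called lower numbered 0 to 1 with each array left out. Arrays of the same number share only a number, with correlations of their deviations of -0.03, -0.01 and 0.07, and with the replicate block 7 azurophil probe sets were lower and 2 higher. Signals below 20 limit ELANE, PRTN3, CTSG and DEFA4.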
